A study of Mus musculus with 18 samples.

Results

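The expression of 9 genes, with which microglia sense microbial products at the cell surface, was followed through 18 RNA sequencing libraries of primary mouse microglia. They are the cell surface Toll-like receptors Tlr1, Tlr2, Tlr4 and Tlr6, the co-receptors Cd14 and Ly96, the receptor homologue Cd180, the adaptor Myd88 and the inhibitory kinase-like protein Irak3. Members were found by gene name, and all 9 of 9 had a single row among the 54532 genes of the count table and passed the filter on low counts. The cells came from pups of post-natal day 0 to 3, spent 10 days in mixed culture before isolation, and all had a pre-treatment of 6 h. Trem2+/+ cells (labelled mTrem2 +/+) received 0.01% DMSO, without tau or with 0N4R tau fibrils at 1 ug/ml. R47H/+ cells (labelled hTrem2 R47H/+, 1 allele with the Alzheimer-linked R47H form of the lipid receptor TREM2) received the same, and further R47H/+ cells received 1 uM MK-2206, which inhibits the kinase Akt, with no DMSO share given, again without or with tau. These are 6 groups of 3 libraries, and the design asks how R47H/+ cells differ at baseline, how both genotypes answer tau, and what MK-2206 changes. Trem2+/+ cells with MK-2206 are not analysed here, and the labels do not say whether replicates came from separate animals or cultures. The p-values then reflect only how far these samples spread, and part of that spread may be technical.

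Toll-like receptors are single-pass proteins whose leucine-rich outer part binds a ligand and whose inner part recruits an adaptor. TLR2 pairs with TLR1 to bind triacylated lipopeptides and with TLR6 to bind diacylated ones. TLR4 binds bacterial lipopolysaccharide only together with MD-2, the product of Ly96, and CD14 hands the lipid to it. CD180, also called RP105, resembles the outer part of TLR4, lacks its inner signalling part and works with MD-1, the product of Ly86. MYD88 joins the activated receptors to the IRAK kinases, and IRAK3, also called IRAK-M, holds that step back and thereby dampens the NF-kB response. Microglia, the resident macrophages of the brain, carry TLR2, TLR4 and CD14, which have been studied as sensors of protein aggregates as well as of microbes.

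In the GRCm38 build all 9 are protein-coding genes. Tlr1 (ENSMUSG00000044827, chromosome 5, 64924679 to 64933563) and Tlr6 (ENSMUSG00000051498, chromosome 5, 64952031 to 64960097) are neighbours on the minus strand. Tlr2 (ENSMUSG00000027995) lies on chromosome 3 at 83836272 to 83841767, Myd88 (ENSMUSG00000032508) on chromosome 9 at 119335934 to 119341411 and Irak3 (ENSMUSG00000020227) on chromosome 10 at 120141648 to 120202130, all on the minus strand. Tlr4 (ENSMUSG00000039005) lies on chromosome 4 at 66827584 to 66930284, Ly96 (ENSMUSG00000025779) on chromosome 1 at 16688051 to 16709611 and Cd180 (ENSMUSG00000021624) on chromosome 13 at 102693558 to 102739629, on the plus strand. Tlr1 and Tlr6 are close copies. Of 3232 stretches of 150 bases in the Tlr1 transcript, 139 (4.30%) also occur in the Tlr6 transcript, the read length the labels give (paired reads of 150 bases). At 100 bases the share was 7.89% and at 50 bases 13.6%, and how the authors' counting treated such reads is not given in the sources used here, so part of the counts of both genes is uncertain. Myd88 overlaps Acaa1a, Irak3 overlaps Tmbim4 and Cd180 overlaps Mast4 on the opposite strand. Over all libraries Acaa1a had 90673 counts against 31787 of Myd88, Tmbim4 27726 against 10785 of Irak3, and Mast4 2520 against 183788 of Cd180. The strand setting of the counting is not given in the sources used here, and without strand the reads of such a pair cannot be told apart where they overlap.

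Upstream sequences are shown for Tlr2 and Myd88 as examples, chosen after the motif matches were seen. Among the windows searched, Tlr2 had the only one with a kappa B-type match, and Myd88 the only one with both of the other motifs. RefSeq windows (assembly GRCm38.p6) were matched for 6 of the 9 members, 10 windows in all. Searched on both strands were a kappa B-type motif (GGGNNTTCC), the core of the interferon-stimulated response element (GAAANNGAA) and a STAT-type motif (TTCNNNGAA), in the 250 bases before each start. These are held by 4.98%, 7.13% and 7.02% of all 32851 windows. The sequences read 5′ to 3′ on the minus strand, with the motif matches in capitals. Printed are only the bases outside GENCODE M21 exons of the gene, so that 159 bases next to the RefSeq start are left out for Tlr2 and 23 for Myd88. The Myd88 stretch lies inside the gene span given above, in an intron of the transcript that starts farthest upstream (Myd88-202), and ends just before the first exon of Myd88-201.
Tlr2, chr3:83841768-83841858: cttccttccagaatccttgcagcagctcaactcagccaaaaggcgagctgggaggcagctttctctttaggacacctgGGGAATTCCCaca
Myd88, chr9:119340042-119340268: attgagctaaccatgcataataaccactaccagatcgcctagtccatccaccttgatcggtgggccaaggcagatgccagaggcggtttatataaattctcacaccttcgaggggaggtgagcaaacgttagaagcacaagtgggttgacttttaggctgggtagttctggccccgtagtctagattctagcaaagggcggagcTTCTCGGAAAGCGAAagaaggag
Counted from the RefSeq start, the Tlr2 window holds the kappa B-type match GGGAATTCC at bases -172 to -164, which overlaps a match on the other strand at -171 to -163. The Myd88 window holds the interferon-stimulated core GAAAGCGAA at -40 to -32 and an overlapping STAT-type match TTCTCGGAA at -46 to -38. Among the other windows, 1 of Tlr6 holds 2 interferon-stimulated cores, 1 of Irak3 holds 1, and 1 of Tlr1 holds a STAT-type match. A match describes letters and shows no binding.

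Library totals lay between 16288531 and 20686299 counts. The libraries Trem2+/+ replicate 3 and R47H/+ tau replicate 2 differed from their own group by gene length, the longer genes being low. The log2 CPM (CPM, counts scaled to one common library size with TMM factors) fell by 1.39 and 0.73 for each 10-fold rise in gene length. In the first of these, Tlr1, Tlr4, Tlr6, Cd180 and Irak3, with gene lengths of 3346 to 5556 bases, had the lowest value of their group, and Cd14 and Ly96, the shortest members at 1572 and 1021 bases, the highest. Results are therefore also given without both libraries where this matters, an alternative chosen after seeing the data. Trem2, the check of the labels, measured 945, 935 and 1894 CPM in Trem2+/+ libraries against 451, 454 and 489 CPM in R47H/+ libraries, and 375 to 481 against 128 to 243 CPM with tau. Mouse Trem2 was thus lower in the R47H/+ libraries, and whether the edited allele itself lowers its count was not tested. Of the microglial markers, Csf1r lay between 1479 and 2705 CPM, and Tmem119 at 2.53 CPM or less, close to absent. Monocyte, granulocyte and border macrophage markers summed to 767 to 1463 CPM, and S100a9 and Ly6g were at 0 in all 18 libraries. The monocyte gene Ly6c2 rose with tau, with means of 4.66 and 146 CPM in Trem2+/+ cells, and of 12.3 and 177 CPM in R47H/+ cells, without and with it. S100a8 also rose, from 6.59 to 13.0 CPM in Trem2+/+ and from 1.78 to 7.61 CPM in R47H/+ cells. So did Ms4a7, from 405 to 447 CPM and from 469.5 to 805.6 CPM in the same order. Under MK-2206 Ly6c2, S100a8 and Ms4a7 rose with tau as well. Cd163 and Lyve1 stayed at 0.728 CPM or less, and Mrc1 and Ccr2 went another way. Mrc1 fell with tau, from 477 to 334 CPM in Trem2+/+ and from 462 to 195 CPM in R47H/+ cells. Ccr2 rose in Trem2+/+ cells (10.2 to 23.8 CPM) and fell in R47H/+ cells (24.9 to 16.9 CPM). Astrocyte markers summed to 37.5 to 59.9 CPM in the 9 libraries without tau and 73.6 to 99.3 CPM in the 9 with it, and oligodendrocyte lineage markers to 131 to 188 and 82.5 to 126 CPM, in neither case overlapping. The astrocyte rise lay mostly in Aldh1l1. Its mean without tau was 27.2 CPM for Trem2+/+, 50.5 for R47H/+ and 39.0 for R47H/+ with MK-2206. With tau these means were 71.2, 73.1 and 85.8 CPM. Aldoc instead fell, from 15.4, 5.75 and 5.33 CPM to 13.6, 3.69 and 3.715 CPM in the same order. Slc1a3 rose in each setting. Gfap, Aqp4, Slc1a2 and S100b, at means of 1.26 CPM or less, fell in Trem2+/+ cells and went both ways elsewhere. Without tau, microglial markers summed to 3002 to 3706 CPM in Trem2+/+, 4308 to 4425 CPM in R47H/+ and 3504 to 3734 CPM in R47H/+ libraries with MK-2206. With tau these sums were 4261 to 4456, 4214 to 4495 and 4865 to 5012 CPM in the same order. Single markers could differ from the sum, as Itgam averaged 158 CPM in Trem2+/+ and 87.05 CPM in R47H/+ cells without tau. The part of these markers in the tau, genotype and MK-2206 results below was not tested. In bulk RNA a change in the number of cells of a type and a change in RNA per cell cannot be told apart.

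Of the 9 genes, 4 rose with tau in both genotypes and under MK-2206, namely Tlr1, Tlr6, Myd88 and Irak3, and 6 differed between genotypes without tau. The share of all genes that rose in all 3 tau comparisons was not computed, so how usual the first count is cannot be told. In Trem2+/+ cells 6 members rose with tau and 1 fell, against 14.4% of all 13267 genes higher and 12.1% lower. In R47H/+ cells 5 rose and 0 fell (15.0% and 12.6% of all genes; 6 rose and 0 fell at an unadjusted p under 0.05, and DESeq2 gave 5 and 0), and under MK-2206 tau raised 6 and lowered 1 (14.3% and 11.3%). Without tau, 4 members were higher and 2 lower in R47H/+ than in Trem2+/+ cells (8.22% and 6.83% of all genes). With tau 2 were higher and 0 lower (5.25% and 4.24%), with 4 and 0 at an unadjusted p under 0.05 and 2 and 0 by DESeq2. MK-2206 without tau lowered 2 and raised 1 (1.36% lower and 1.19% higher over all genes). With tau it changed 0 of 9 by edgeR and 0 by DESeq2, with 2 lower at an unadjusted p under 0.05 (1.64% higher and 1.40% lower over all genes). The median log2 change of the 9 members was 0.76 with tau in Trem2+/+, 0.58 in R47H/+ and 0.88 under MK-2206, beside -0.04, -6.13e-05 and -0.03 over all genes. All tests are edgeR quasi-likelihood tests over 18 libraries, with p-values adjusted by Benjamini-Hochberg over the 13267 genes. The baseline genotype comparison and the tau comparison in Trem2+/+ cells share the 3 Trem2+/+ libraries.

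**Figure D1:**
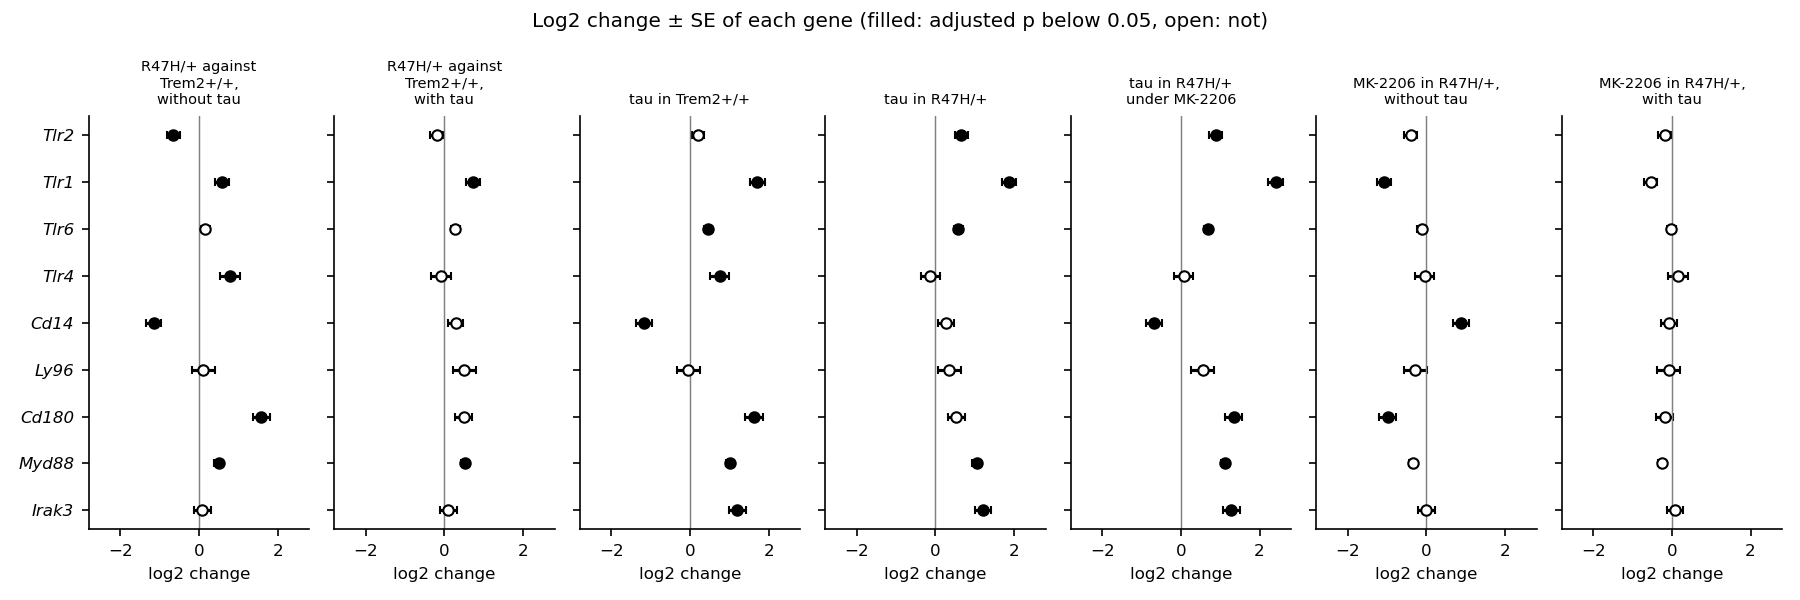
Log2 change with its SE (x axis) of the 9 genes (y axis) in the 7 pairwise comparisons, filled where the adjusted p was below 0.05 and open where not. Tlr1 lies farthest to the right in the 3 tau panels, at 1.72, 1.87 and 2.41, and in the panel of MK-2206 with tau 0 points are filled.

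Tlr2, the shared partner of the lipopeptide receptors, was lower in R47H/+ than in Trem2+/+ cells and rose with tau in R47H/+ cells. Trem2+/+ libraries held 200.4, 312 and 253 CPM, and R47H/+ libraries 164, 159 and 163 CPM. The groups did not overlap, and the spread was wider among Trem2+/+ libraries (SD 56.0 against 2.23 CPM). The log2 change was -0.66 (SE 0.164, adjusted p = 0.012), and in a fit of those 6 libraries alone it was -0.68 and missed the threshold (adjusted p = 0.119). Trem2+/+ libraries with tau held 274, 280.2 and 327 CPM, and R47H/+ libraries with tau 274, 260.1 and 234.5 CPM, so the groups met at 274 CPM. The change with tau was 0.20 in Trem2+/+ cells (SE 0.163, adjusted p = 0.381, edgeR) and 0.66 in R47H/+ cells (SE 0.164, adjusted p = 0.00618). Whether tau acts more on Tlr2 in R47H/+ cells was tested as the genotype by tau interaction, which was 0.46 (SE 0.23, adjusted p = 0.234) and did not pass. Under MK-2206 tau took Tlr2 from 116, 97.6 and 155 CPM to 218, 225 and 236 CPM, a rise of 0.88 (SE 0.164, adjusted p = 0.000674). The effect of MK-2206 itself was -0.40 without tau (adjusted p = 0.327) and -0.18 with tau (adjusted p = 0.632), neither past the threshold. In a fit of those 6 libraries alone the first of these passed, at -0.39 (adjusted p = 0.0187).

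Tlr1, the partner for triacylated lipopeptides, had the widest range of the 9, 7.74-fold between the highest and the lowest group mean. Without tau it measured 61.6, 58.9 and 32.1 CPM in Trem2+/+, 79.9, 75.7 and 73.4 CPM in R47H/+ and 39.4, 33.1 and 35.6 CPM in R47H/+ with MK-2206. Each R47H/+ library thus lay above every Trem2+/+ and every MK-2206 library. Tau brought Tlr1 to 157, 161 and 186 CPM in Trem2+/+, 304, 259.5 and 272.5 CPM in R47H/+ and 176.5, 204 and 193 CPM in R47H/+ with MK-2206. The order of group means ran from R47H/+ with tau through MK-2206 with tau, Trem2+/+ with tau, R47H/+ and Trem2+/+ to MK-2206 without tau, and the only neighbours that overlapped were the MK-2206 and Trem2+/+ groups with tau, and the Trem2+/+ and MK-2206 groups without. The log2 change with tau was 1.72 in Trem2+/+ cells (SE 0.182, adjusted p = 2.28e-06), 1.87 in R47H/+ cells (SE 0.182, adjusted p = 1.1e-06) and 2.41 under MK-2206 (SE 0.187, adjusted p = 7.28e-08). The genotype by tau interaction was 0.15 (adjusted p = 0.711), and 0.44 without both length-shifted libraries (adjusted p = 0.0191).

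Tlr1 was higher in R47H/+ than in Trem2+/+ cells without tau, by 0.58 (SE 0.178, adjusted p = 0.0373), and with tau, by 0.73 (SE 0.177, adjusted p = 0.0149). The baseline difference was 0.32 without Trem2+/+ replicate 3 (adjusted p = 0.0457) and 0.34 without both length-shifted libraries (adjusted p = 0.00606). It missed the threshold in a fit of those 6 libraries alone (adjusted p = 0.315) and when R47H/+ replicate 1, 2 or 3 or R47H/+ MK-2206 tau replicate 3 was left out (adjusted p = 0.114, 0.0924, 0.0751 and 0.0508). The difference with tau missed it without Trem2+/+ tau replicate 1 or 2 or R47H/+ tau replicate 1 (adjusted p = 0.0753, 0.0652 and 0.0588). MK-2206 lowered Tlr1 without tau (log2 change -1.08, SE 0.18, adjusted p = 0.00336). With tau the change was -0.54 (SE 0.177, adjusted p = 0.126), and -0.59 without both length-shifted libraries, past the threshold (adjusted p = 5.2e-05). The MK-2206 by tau interaction was 0.54 (adjusted p = 0.604), and 0.49 without those libraries (adjusted p = 0.0164).

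Tlr6, the partner for diacylated lipopeptides, rose with tau by a small step in each setting. In Trem2+/+ libraries it went from 33, 32.7 and 27.1 CPM to 44.2, 39.3 and 44 CPM. In R47H/+ libraries it rose from 33.3, 36.2 and 34.2 CPM to 58.5, 48.4 and 48 CPM, and under MK-2206 from 31.7, 31.3 and 32.2 CPM to 47.6, 56.8 and 49 CPM. In none of these 3 pairs did the libraries without and with tau overlap. The changes were 0.46 (SE 0.112, adjusted p = 0.00608), 0.58 (SE 0.112, adjusted p = 0.000955) and 0.69 (SE 0.112, adjusted p = 0.000198). The first missed the threshold in a fit of those 6 libraries alone (adjusted p = 0.135). Between genotypes Tlr6 differed by 0.16 without tau (adjusted p = 0.355) and by 0.28 with tau (adjusted p = 0.139), the latter at 0.32 and past the threshold without both length-shifted libraries (adjusted p = 0.0128). The MK-2206 changes were -0.12 and -0.01 (adjusted p = 0.882 and 0.963).

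Because Tlr1 and Tlr6 compete for the same partner, their levels were also set against Tlr2 within each library, per kilobase of gene length and without a test. The ratio of Tlr1 to Tlr2 was 0.114 to 0.277 in Trem2+/+ libraries, 0.407 to 0.440 in R47H/+ and 0.207 to 0.306 in R47H/+ with MK-2206. With tau it was 0.511 to 0.516 in Trem2+/+, 0.899 to 1.05 in R47H/+ and 0.730 to 0.818 in R47H/+ with MK-2206. Each group with tau thus lay above every library without tau, and R47H/+ with tau held the highest ratios. The ratio of Tlr6 to Tlr2 moved less, from 0.0847 to 0.133 in Trem2+/+ libraries to 0.168 to 0.259 in R47H/+ with MK-2206, and did not separate the libraries with tau from those without. Tlr1 exceeded Tlr6 in every library, by a ratio of 1.18 to 2.67 without tau and 3.95 to 6.32 with tau.

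**Figure D2:**
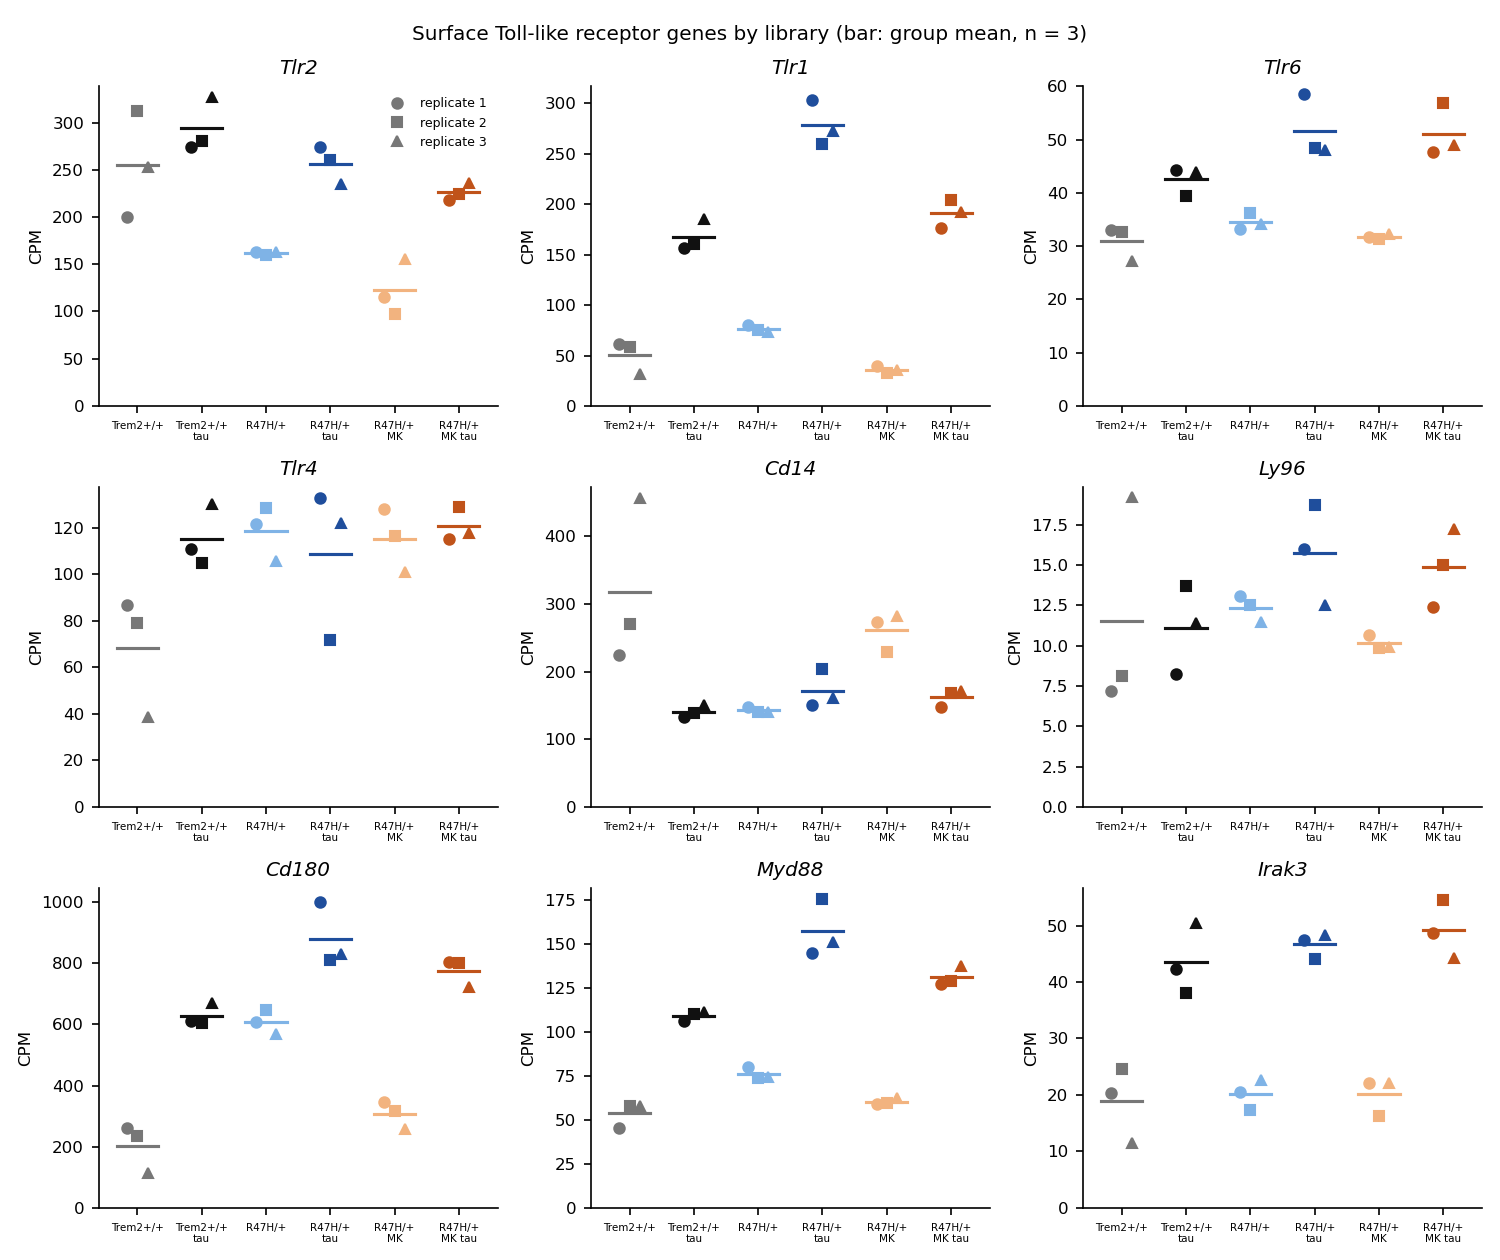
CPM (y axis) of each of the 9 genes in every library by group (x axis, MK for MK-2206), with the replicate number as marker shape and a bar for the group mean (n = 3). Tlr1 reaches 304 CPM and Cd180 1001 CPM in R47H/+ with tau, Tlr4 of R47H/+ with tau replicate 2 lies at 71.6 CPM, and Cd14 of Trem2+/+ replicate 3 at 457 CPM.

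Tlr4, the lipopolysaccharide receptor, stayed between 101 and 133 CPM in 14 of the 18 libraries. Trem2+/+ libraries measured 86.8, 79 and 38.5 CPM, below those 14, and R47H/+ with tau replicate 2 measured 71.6 CPM beside 133 and 122 CPM in its group. The 4 low values thus include both length-shifted libraries, and Tlr4 is the longest of the 9 genes. Tlr4 was higher in R47H/+ than in Trem2+/+ cells without tau, by 0.80 (SE 0.25, adjusted p = 0.0419), and rose with tau in Trem2+/+ cells, by 0.76 (SE 0.25, adjusted p = 0.0349). Without both length-shifted libraries these were 0.52 (adjusted p = 0.000639) and 0.46 (adjusted p = 0.00115). With Trem2+/+ replicate 3 alone left out they were 0.49 and 0.44 and missed the threshold (adjusted p = 0.076 and 0.0837). The baseline difference also missed it when any of 13 other libraries was left out, with an adjusted p of 0.0502 to 0.129, the exceptions being Trem2+/+ replicates 1 and 2 and R47H/+ tau replicates 1 and 2. The tau change in Trem2+/+ cells also missed it without Trem2+/+ tau replicate 1, 2 or 3 (adjusted p = 0.0653, 0.0541 and 0.116). Fits of the compared groups alone ended both calls (adjusted p = 0.253 and 0.205). In R47H/+ cells the tau change was -0.13 (SE 0.249, adjusted p = 0.749), and 0.09 without the length-shifted libraries. The MK-2206 changes were -0.04 and 0.15 (adjusted p = 0.997 and 0.803).

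Cd14, which hands lipopolysaccharide to TLR4, was highest in the groups in which Cd180 was lowest, those of Trem2+/+ and of R47H/+ with MK-2206 without tau. The gene (ENSMUSG00000051439) lies on the minus strand of chromosome 18 at 36725074 to 36726736 (GRCm38). In Trem2+/+ cells tau took Cd14 from 225, 270.0 and 457 CPM to 132.5, 139 and 150.1 CPM, with a log2 change of -1.17 (SE 0.199, adjusted p = 0.000302). R47H/+ libraries held 147, 140.4 and 141 CPM without tau, below every Trem2+/+ library without tau, with a log2 change of -1.15 (SE 0.199, adjusted p = 0.000755). With tau they held 150.2, 204 and 161 CPM, a change of 0.27 (SE 0.197, adjusted p = 0.351). Tau thus lowered Cd14 in Trem2+/+ cells. In R47H/+ cells every library with tau lay above every library without it, and this rise missed the threshold. The difference between these tau changes was 1.44 (SE 0.279, adjusted p = 0.00507), 1 of 272 higher calls (2.05% of all genes) in the genotype by tau interaction, where Cd180 was the other member called, among 3.32% lower. Without Trem2+/+ replicate 3 the interaction was 1.12 (adjusted p = 0.000202) and without both length-shifted libraries 0.94 (adjusted p = 1.89e-05). The baseline difference was then -0.79 (adjusted p = 4.49e-07), and in a fit of those 6 libraries alone it was -1.18 and missed the threshold (adjusted p = 0.0913).

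MK-2206 raised Cd14 in R47H/+ cells without tau, to 273, 229.8 and 282 CPM, above every untreated R47H/+ library and within the range of Trem2+/+ libraries. The change was 0.87 (SE 0.198, adjusted p = 0.0264). It missed the threshold when R47H/+ replicate 1, 2 or 3 (adjusted p = 0.102, 0.116 and 0.108) or R47H/+ MK-2206 replicate 1, 2 or 3 (adjusted p = 0.0948, 0.0541 and 0.105) was left out, with changes of 0.82 to 0.96. From there tau lowered Cd14 to 148, 169 and 171 CPM (log2 change -0.69, SE 0.197, adjusted p = 0.016). This call was lost without R47H/+ MK-2206 replicate 1 or 3 or R47H/+ MK-2206 tau replicate 1 (adjusted p = 0.0529, 0.0592 and 0.0702). With tau present, MK-2206 and untreated R47H/+ cells overlapped (-0.08, adjusted p = 0.877). The MK-2206 by tau interaction was -0.95 (SE 0.278, adjusted p = 0.22). It passed at -0.81 without both length-shifted libraries (adjusted p = 0.000365) and at -0.95 in a fit of those 4 groups alone (adjusted p = 0.0125).

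Ly96, whose product MD-2 completes the TLR4 receptor, had the lowest CPM of the 9 and did not pass the test in any comparison. It measured 7.17, 8.12 and 19.2 CPM in Trem2+/+, 8.23, 13.7 and 11.4 CPM in Trem2+/+ with tau, and 13.1, 12.5 and 11.5 CPM in R47H/+ libraries. R47H/+ libraries with tau held 16, 18.7 and 12.5 CPM, and under MK-2206 tau took Ly96 from 10.7, 9.89 and 9.9 CPM to 12.4, 15 and 17.2 CPM. Every group overlapped its neighbour in the order of means, and the value of 19.2 CPM in Trem2+/+ replicate 3 was the highest of all. Without both length-shifted libraries Ly96 was higher in R47H/+ than in Trem2+/+ cells (0.69, adjusted p = 0.00505), and rose with tau in Trem2+/+ cells (0.52, adjusted p = 0.0224) and under MK-2206 (0.53, adjusted p = 0.00617). With all libraries these were 0.11, -0.04 and 0.55 (adjusted p = 0.819, 0.937 and 0.203). Per kilobase the ratio of Cd14 to Tlr4 was 9.16, 12.1 and 42.0 in Trem2+/+ libraries and 6.98 to 9.88 in R47H/+ with MK-2206. In the other 4 groups it was 3.86 to 5.13, apart from 10.05 in R47H/+ with tau replicate 2.

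Cd180, the TLR4 homologue without a signalling part, was called in 4 of the 7 pairwise comparisons and was the member with the highest level per kilobase in every group except Trem2+/+ and R47H/+ with MK-2206 without tau, where Cd14 was higher. Trem2+/+ libraries held 261, 234 and 113 CPM, and R47H/+ libraries 609, 648 and 568 CPM, a difference of 1.58 (SE 0.222, adjusted p = 9.87e-05). Every R47H/+ library lay above every Trem2+/+ library. In Trem2+/+ cells tau raised it to 612, 603.5 and 668 CPM, a change of 1.63 (SE 0.222, adjusted p = 3.48e-05), and these libraries overlapped those of R47H/+ cells without tau. In R47H/+ cells tau gave 1001, 811 and 829 CPM, above every library without tau, with a change of 0.53 (SE 0.217, adjusted p = 0.0812). That change passed the threshold without both length-shifted libraries (0.58, adjusted p = 7.31e-05), without Trem2+/+ replicate 3 (0.54, adjusted p = 0.000599) and in a fit of those 6 libraries alone (adjusted p = 0.0106). The baseline genotype difference was 1.30 without both length-shifted libraries (adjusted p = 2.87e-09), and in a fit of those 6 libraries alone 1.57 (adjusted p = 0.0507).

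The genotype by tau interaction of Cd180 was -1.10 (SE 0.307, adjusted p = 0.0486), so the rise with tau was smaller in R47H/+ cells. It missed the threshold when any of 15 libraries was left out (adjusted p = 0.0507 to 0.118), all but the 3 Trem2+/+ libraries without tau, and with RLE scaling (adjusted p = 0.0511) or the 4 groups alone (adjusted p = 0.155). Without Trem2+/+ replicate 3 it was -0.77 (adjusted p = 0.00591) and without both length-shifted libraries -0.75 (adjusted p = 0.00102). Between genotypes with tau Cd180 differed by 0.49 (adjusted p = 0.189), and by 0.54 without those libraries (adjusted p = 0.000393). MK-2206 lowered Cd180 in R47H/+ cells without tau to 347.5, 316 and 256 CPM (log2 change -0.99, SE 0.218, adjusted p = 0.023). The call was lost without R47H/+ replicate 1, 2 or 3 (adjusted p = 0.0847, 0.0934 and 0.0575) or R47H/+ MK-2206 replicate 2 or 3 (adjusted p = 0.0922 and 0.124). Under MK-2206 tau raised it to 803, 801 and 722.5 CPM, by 1.34 (SE 0.22, adjusted p = 0.000214), and MK-2206 changed it by -0.18 with tau (adjusted p = 0.717). The MK-2206 by tau interaction was 0.80 (adjusted p = 0.444), and 0.75 without the length-shifted libraries (adjusted p = 0.00239). Over all genes 0.181% were higher and 0.196% lower in that interaction, and 0 of the 9 members were called with all libraries by edgeR or DESeq2, with 3 at an unadjusted p under 0.05.

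Set against Tlr4 per kilobase, Cd180 stood at 3.61 to 3.70 in Trem2+/+ libraries and 3.13 to 3.35 in R47H/+ with MK-2206. R47H/+ libraries were at 6.17 to 6.63, Trem2+/+ with tau at 6.33 to 7.11, R47H/+ with tau at 8.39 to 13.95 and MK-2206 with tau at 7.57 to 8.60. This ratio barely varied among Trem2+/+ libraries, although both genes were low in replicate 3. Ly86, which encodes the CD180 partner MD-1, was chosen after its values were seen: it was higher in R47H/+ than in Trem2+/+ cells by 0.64 (adjusted p = 0.0495) and rose with tau in Trem2+/+ cells by 0.60 (adjusted p = 0.042) and under MK-2206 by 0.83 (adjusted p = 0.00693). Without both length-shifted libraries the first 2 were 1.07 and 1.02 (adjusted p = 5.73e-11 and 5.55e-11), and the fits of the compared groups alone ended both calls (adjusted p = 0.385 and 0.308).

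**Figure D3:**
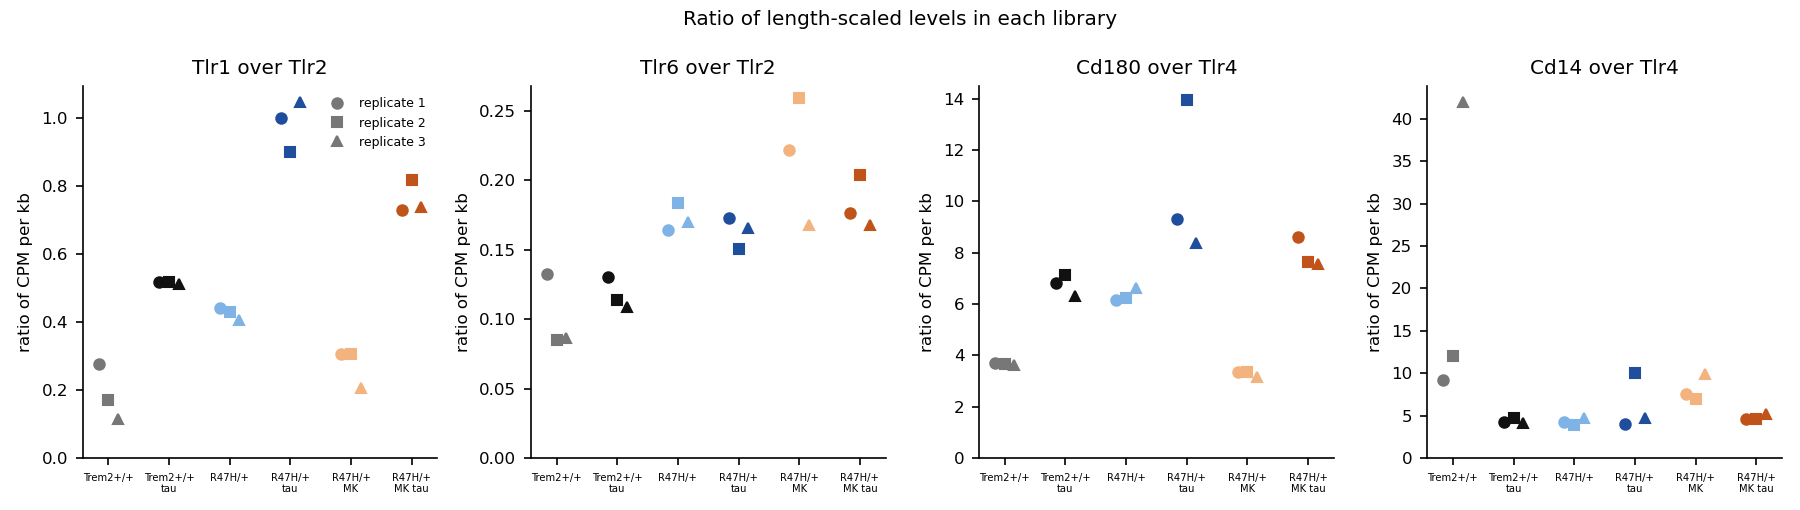
Ratio of the levels per kilobase of gene length (y axis) of 4 pairs of genes in every library by group (x axis, MK for MK-2206), with the replicate number as marker shape. Tlr1 over Tlr2 reaches 0.899 to 1.05 in R47H/+ with tau, and Cd14 over Tlr4 stands at 42.0 in Trem2+/+ replicate 3.

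Myd88, the adaptor shared by these receptors, rose by a like step in each tau comparison. It measured 45.7, 57.8 and 57.9 CPM in Trem2+/+, 79.97, 73.7 and 74.7 CPM in R47H/+ and 59.3, 59.5 and 62.5 CPM in R47H/+ with MK-2206. With tau it measured 106, 110.4 and 112 CPM in Trem2+/+, 145, 175.5 and 151 CPM in R47H/+ and 127.5, 129 and 137 CPM in R47H/+ with MK-2206. No 2 groups next to each other in the order of means overlapped. Tau raised Myd88 in each setting, by 1.02 in Trem2+/+ (SE 0.106, adjusted p = 1.72e-06), 1.05 in R47H/+ (SE 0.106, adjusted p = 1.56e-06) and 1.12 under MK-2206 (SE 0.106, adjusted p = 6.09e-07). R47H/+ cells held more than Trem2+/+ cells without tau, by 0.50 (SE 0.105, adjusted p = 0.00368), and with tau, by 0.52 (SE 0.105, adjusted p = 0.00437). The baseline difference missed the threshold in a fit of those 6 libraries alone (0.48, adjusted p = 0.162). The genotype by tau interaction was 0.02 with an SE of 0.148 (adjusted p = 0.932). MK-2206 gave -0.33 without tau (SE 0.105, adjusted p = 0.136) and -0.26 with tau (SE 0.104, adjusted p = 0.236), and the first passed without both length-shifted libraries (-0.33, adjusted p = 0.00377), with DESeq2 (adjusted p = 0.03) and in a fit of those 6 libraries alone (adjusted p = 0.00107).

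Irak3, the inhibitor of the step after MYD88, rose with tau in each setting and passed the test in no other comparison. Without tau it measured 20.4, 24.7 and 11.5 CPM in Trem2+/+, 20.5, 17.4 and 22.6 CPM in R47H/+ and 22.1, 16.2 and 22.1 CPM in R47H/+ with MK-2206. With tau it measured 42.3, 38.1 and 50.4 CPM, 47.5, 44.1 and 48.3 CPM, and 48.7, 54.5 and 44.2 CPM in the same order. All 9 libraries with tau lay above all 9 without, and within each of these sets the groups overlapped. The changes with tau were 1.20 (SE 0.214, adjusted p = 0.00047), 1.21 (SE 0.214, adjusted p = 0.000455) and 1.29 (SE 0.214, adjusted p = 0.00024). Between genotypes Irak3 differed by 0.09 without tau and 0.10 with tau (adjusted p = 0.8 and 0.806), and MK-2206 gave -0.000757 and 0.07 (adjusted p = 0.999 and 0.892). Per kilobase Irak3 stood at 0.139 to 0.316 of Myd88 in all 18 libraries, and the 9 libraries with tau held 0.176 to 0.316.

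Across the 18 libraries the members did not move as 1 block. Pearson's r of log2 CPM, given as a description since the points share the 6 groups, was 0.937 between Tlr1 and Myd88, 0.939 between Tlr1 and Tlr6 and 0.872 between Myd88 and Irak3. Tlr2 was less tied to its partners, with 0.629 to Tlr1 and 0.491 to Tlr6. Cd14 ran opposite to Cd180 (-0.878) and to Tlr4 (-0.728) and was unrelated to Ly96 (0.00559). Genes tested whose mean log2 CPM was 1 or more were ranked by r, leaving out pseudogenes and symbols of clone, Rik or Gm type. Those most like each member were Nfkbiz and Acp2 for Tlr1 (0.979 and 0.978) and Gbe1 and Pid1 for Tlr2 (0.923 and 0.905). They were Gca and Fam49a for Tlr6 (0.969 and 0.966) and Xrn1 and Atad2b for Tlr4 (0.980 and 0.969). For Cd14 they were Cpe and Lgals3 (0.926 and 0.907), for Ly96 Fcf1 and Ezh2 (0.924 and 0.914), for Cd180 Tor1aip1 and Ms4a14 (0.963 and 0.961), for Myd88 Il2rg and Cd69 (0.995 and 0.994) and for Irak3 Lrrc8c and Osbpl3 (0.972 and 0.969). These values rest on the same 18 libraries, the length-shifted ones included.

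A set of 4 lists holds 44 further genes of the pathway, of which 43 were tested, all but Tlr5. With tau 20 rose and 2 fell in Trem2+/+ cells (14.4% and 12.1% of all genes), 16 rose and 2 fell in R47H/+ cells (15.0% and 12.6%), and 18 rose and 3 fell under MK-2206 (14.3% and 11.3%). In fits of the compared groups alone these were 9 and 1, 16 and 3, and 23 and 5. Without both length-shifted libraries these were 22 and 7, 21 and 8, and 23 and 6. At baseline, where 8.22% of all genes were higher and 6.83% lower, 11 were higher and 5 lower in R47H/+ than in Trem2+/+ cells (11 and 9 without those libraries, and 3 and 1 in a fit of those 6 libraries alone), and with tau 5 were higher and 0 lower (14 and 5), with 9 and 6 at an unadjusted p under 0.05 by edgeR. Over all genes 5.25% were higher and 4.24% lower in R47H/+ than in Trem2+/+ cells with tau. MK-2206 lowered 1 and raised 0 without tau (8 and 3, and 10 and 3 in a fit of those 6 libraries alone) and changed 0 of 43 with tau (3 lower and 1 higher), with 3 at an unadjusted p under 0.05 by edgeR. Of all genes it lowered 1.36% and raised 1.19% without tau, and lowered 1.40% and raised 1.64% with tau.

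By list, the inhibitors held 11 genes, of which 5 rose with tau in Trem2+/+, 6 in R47H/+ cells and 7 under MK-2206, with 1, 2 and 1 lower. Over all genes 14.4%, 15.0% and 14.3% rose and 12.1%, 12.6% and 11.3% fell in these comparisons. Socs1, which blocks cytokine and Toll-like receptor signalling, rose from 3.33 ± 0.83 to 18.9 ± 0.922 CPM in Trem2+/+ and from 8.23 ± 0.366 to 45.1 ± 2.62 CPM in R47H/+ cells (SD, n = 3 each). Its log2 changes were 2.52, 2.45 and, under MK-2206, 2.95 (SE 0.148, 0.14 and 0.144, edgeR adjusted p = 2.41e-09, 4.33e-09 and 1.23e-09), and with tau it was higher in R47H/+ cells by 1.25 (adjusted p = 2.6e-05). Tollip, which restrains IRAK1, fell in all 3 tau comparisons, by changes of -0.39, -0.34 and -0.40 (edgeR adjusted p = 0.00757, 0.0179 and 0.00628), the first lost with the compared groups alone (adjusted p = 0.137). Il1rl1, also called ST2, fell with tau in R47H/+ cells (log2 change -2.32, edgeR adjusted p = 0.0257) but stood at 0.808 CPM or less in both group means. Cd300lf, an inhibitory receptor, was higher in R47H/+ than in Trem2+/+ cells by 1.57 and rose with tau in Trem2+/+ cells by 1.82 (SE 0.125 and 0.126, edgeR adjusted p = 2.14e-07 and 1.55e-08), with an interaction of -1.03 (adjusted p = 0.0016). Tnfaip3, an NF-kB brake, had an interaction of 1.14 (SE 0.23, adjusted p = 0.00651), with means without and with tau of 62.5 and 56.3 CPM in Trem2+/+ cells, against 42.6 and 84.3 CPM in R47H/+ cells. Nrros, a regulator that binds Toll-like receptors, was the 1 gene lowered by MK-2206 (log2 change -0.47, SE 0.0947, adjusted p = 0.0136).

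Among the 11 endosomal and other Toll-like receptors and their chaperones, of which 10 were tested, 7 rose with tau in Trem2+/+ cells, 4 in R47H/+ cells and 6 under MK-2206, with 0, 0 and 1 lower. Beside these and the 2 lists below, 14.4%, 15.0% and 14.3% of all genes rose and 12.1%, 12.6% and 11.3% fell. Tlr11 and Tlr12, counted as rising each time, had low means of 0.28 to 1.08 CPM in the groups without tau. Tlr3, the sensor of double-stranded RNA, averaged 19 ± 3.3 CPM in Trem2+/+ and 52.7 ± 3.75 CPM in R47H/+ cells (SD, n = 3 each), a difference of 1.47 (SE 0.154, adjusted p = 4.39e-06), and was higher in R47H/+ cells with tau too, by 0.78 (adjusted p = 0.00328). Tau raised Tlr3 by 2.12 in Trem2+/+ (adjusted p = 3.22e-08), 1.43 in R47H/+ (adjusted p = 2.68e-06) and 1.80 under MK-2206 (adjusted p = 2.02e-07). Of the 8 adaptors and partners, 3 rose with tau in Trem2+/+, 3 in R47H/+ cells and 2 under MK-2206, with 1, 0 and 1 lower. Cd36, a scavenger receptor that works with TLR2 and TLR6, averaged 1013 ± 155 CPM in Trem2+/+, 427 ± 43.3 CPM in Trem2+/+ with tau and 433 ± 27.2 CPM in R47H/+ cells. It was lower in R47H/+ cells (-1.23, SE 0.153, adjusted p = 2.96e-05) and fell with tau in Trem2+/+ cells (-1.25, SE 0.153, adjusted p = 1.18e-05), with an interaction of 0.86 (adjusted p = 0.0257), the same signs as Cd14. Itgam, the CR3 integrin chain, was lower in R47H/+ cells (log2 change -0.86, SE 0.144, adjusted p = 0.000574), a call lost with those 6 libraries alone (adjusted p = 0.0604). Of the 14 kinases and ligases downstream of the receptors, some of them of the interferon branch, 5, 3 and 3 rose with tau in these settings and the others did not pass the test. No member of this list passed it between genotypes without tau by edgeR, where 8.22% of all genes were higher and 6.83% lower. Ikbke, a kinase of the interferon branch, rose with tau in all 3 settings, by 1.41 in Trem2+/+ (adjusted p = 3.21e-06), 1.60 in R47H/+ (adjusted p = 9.81e-07) and 1.55 under MK-2206 (adjusted p = 1.11e-06). In R47H/+ cells its mean went from 145 to 439.5 CPM.

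**Figure D4:**
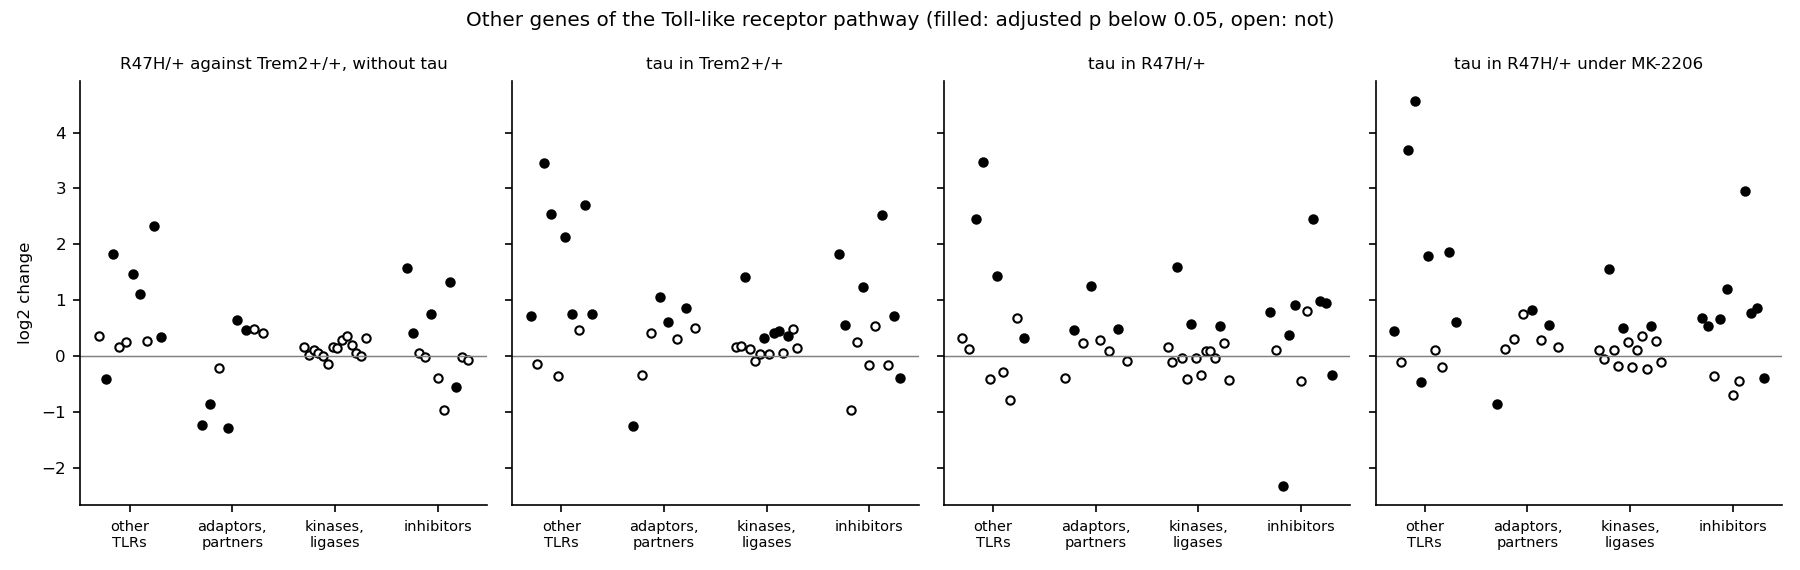
Log2 change (y axis) of the 43 tested pathway genes by list (x axis) in 4 comparisons, filled where the adjusted p was below 0.05 and open where not. In the baseline genotype comparison 0 of 14 kinases and ligases are filled, and Socs1 is the highest of the inhibitors with tau, at 2.52, 2.45 and 2.95.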

How the data were processed

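Primary mouse microglia gave 18 RNA libraries, 3 in each of 6 groups taken from the sample titles. Reads were aligned with STAR and counted per gene with featureCounts on GRCm38 (mm10) by the authors, and DESeq2 was also named, per the submitters' processing notes. The versions and the strand setting of the counting are not given in the sources used here. The authors deposited whole-number counts for each gene, not normalized, beside each gene's coordinates and length in bases, and 27 symbols that had turned into dates were restored. The start and end of 8 of the 9 genes equal those of GENCODE M21.

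The tools were edgeR 4.0.16, DESeq2 1.42.0 and limma 3.58.1, under R 4.3.3. Of 54532 genes, 13267 passed filterByExpr. With TMM scaling, the 18 libraries were fitted together by quasi-likelihood, each group having its own term (12 residual degrees of freedom), and 7 pairwise comparisons and 2 interactions were tested two-sided at an adjusted p of 0.05 (Benjamini-Hochberg). CPM use the scaled library sizes, log2 CPM a prior count of 2, and an exact permutation of 3 against 3 cannot go below 0.1, so none is given. The fitting code was tested on simulated data with known changes, for the tau comparison in R47H/+ cells only. Levels between genes are compared as CPM per kilobase of gene length.

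The 9 genes and all lists were chosen with earlier results of these data known. Named were the 9 members, Trem2, up to 2 higher and 2 lower list genes with the smallest p per comparison, and the 2 genes most correlated with each member. Tried as alternatives were DESeq2, RLE scaling, a fit without the count filter, the compared groups alone, a replicate block, each library left out and, added after seeing the data, both length-shifted libraries left out. Replicates of a group differed by a chi-square of 3.3 to 262 per gene, beyond counting error, so none was a re-sequenced copy of another. This cannot show whether they came from separate animals or cultures. Neuron and fibroblast or vessel markers summed to at most 3.5 and 2.62 CPM, and microglial markers to 3002 to 5012 CPM.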

Additional observations from a re-analysis of the deposited data

Results flagged for a closer look

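The response of Cd14 to tau differed between genotypes, with a genotype by tau interaction of 1.44 on the log2 scale (edgeR quasi-likelihood, SE 0.279, adjusted p = 0.00507). Cd14 fell with tau in Trem2+/+ cells, from 225, 270.0 and 457 CPM to 132.5, 139 and 150.1 CPM. In R47H/+ cells it stood at 147, 140.4 and 141 CPM without tau and at 150.2, 204 and 161 CPM with tau. Library Trem2+/+ replicate 3 held the highest Cd14 value of all, and without it the interaction was 1.12.

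The response of Cd180 to tau also differed, with an interaction of -1.10 (edgeR quasi-likelihood, SE 0.307, adjusted p = 0.0486). Cd180 rose with tau in Trem2+/+ cells from 261, 234 and 113 CPM to 612, 603.5 and 668 CPM, and in R47H/+ cells it stood at 609, 648 and 568 CPM without tau and at 1001, 811 and 829 CPM with tau. This value lies close to the threshold, and leaving out any of 15 libraries ended the call.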

How the results depend on the processing

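Of 81 changes of the 9 genes (9 comparisons each), 32 passed the threshold with all libraries. 19 of these passed under every alternative, and 0 changed direction. Leaving out both length-shifted libraries kept all 32 and added 11, DESeq2 kept all 32 and added 1, no count filter kept all 32, RLE scaling ended 1 and the compared groups alone ended 9 and added 7. Fits with fewer groups have fewer residual degrees of freedom. The cause of the changes in calls under any of these alternatives was not tested.

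The numbers of all genes called were as follows. For R47H/+ against Trem2+/+ without tau it was 1997, with 474 in the compared groups alone, 3907 without both length-shifted libraries and 1295 to 2975 with 1 library left out. With tau it was 1260, 3141 without both and 629 to 3469 with 1 left out. For tau in Trem2+/+ it was 3519, 1311 alone and 5589 without both. For tau in R47H/+ it was 3667, 5773 without both and 2686 to 5856 with 1 left out. For tau under MK-2206 it was 3393, 6225 alone and 6475 without both. For MK-2206 without tau it was 338, 583 with DESeq2, 2236 alone, 1878 without both and 138 to 857 with 1 left out. For MK-2206 with tau it was 403, 236 without a filter, 753 with DESeq2, 220 alone, 1620 without both and 150 to 1729 with 1 left out. For the genotype by tau interaction it was 713, 1194 with DESeq2, 360 alone, 1610 without both and 471 to 1537 with 1 left out. For the MK-2206 by tau interaction it was 50, 220 with DESeq2, 187 alone, 667 without both and 9 to 313 with 1 left out.

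Of the 9 genes, 6 were called for R47H/+ against Trem2+/+ without tau and 0 in those groups alone, and with tau 2 were called, 4 without both and 1 to 5 with 1 library left out. MK-2206 without tau gave 3, 5 alone and 1 to 4 with 1 left out, and with tau 0, 1 without both and 0 to 1 with 1 left out. The genotype by tau interaction gave 2, 1 with RLE scaling, 1 alone and 1 to 2 with 1 left out, and the MK-2206 by tau interaction 0, 2 alone, 3 without both and 0 to 3 with 1 left out.

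Changes that missed the threshold with all libraries and turned sign were these. Without both length-shifted libraries Irak3 was at -0.16 for R47H/+ against Trem2+/+ without tau, Ly96 at 0.52 for tau in Trem2+/+, and Tlr4 at 0.0878 for tau in R47H/+ and 0.14 for R47H/+ against Trem2+/+ with tau. In MK-2206 with tau Tlr4 was then at -0.0742, Cd14 at 0.0673 and Ly96 at 0.0625, and in the interactions Ly96 at -0.33, Myd88 at -0.12 and Tlr4 at -0.0380. Irak3 with MK-2206 without tau (-0.000757) was at 0.003543 with RLE scaling, 0.008105 without a filter, 0.003545 with DESeq2, 0.002958 alone and 0.004852 without both. Without a filter the genotype by tau interaction was -0.01061 for Myd88 and -0.02116 for Irak3. With 1 library left out, in R47H/+ against Trem2+/+ without tau Ly96 ranged from -0.14 to 0.67 and Irak3 from -0.18 to 0.33, and Tlr4 with tau from -0.25 to 0.14. Ly96 with tau in Trem2+/+ ranged from -0.29 to 0.50, Tlr4 with tau in R47H/+ from -0.29 to 0.10 and under MK-2206 from -0.0189 to 0.15. For MK-2206 without tau Tlr4 ranged from -0.13 to 0.0441 and Irak3 from -0.10 to 0.13. With tau Tlr4 ranged from -0.0759 to 0.32, Tlr6 from -0.10 to 0.0852, Cd14 from -0.16 to 0.0659, Ly96 from -0.23 to 0.0619 and Irak3 from -0.00886 to 0.14. In the genotype by tau interaction Tlr1 ranged from -0.00339 to 0.43, Ly96 from -0.15 to 0.65, Myd88 from -0.0586 to 0.14 and Irak3 from -0.23 to 0.30, and in the MK-2206 by tau interaction Tlr4 from -0.0318 to 0.36 and Irak3 from -0.0583 to 0.17.

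Replicate numbers did not pair the libraries: over 45 same-numbered pairs of different groups, r of the deviations from the group means had a median of -0.00153 (-0.634 to 0.49), and 5 of 18 libraries matched best with their own number. A fit with the replicate number as a block gave 249 genes called for MK-2206 with tau and 21 for the MK-2206 by tau interaction, and changed no call of the 9 genes.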
